A study of Mus musculus with 9 samples.

Results

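The genes described here encode 9 enzymes of the betaine, methionine and transsulfuration reactions: Bhmt, Bhmt2, Chdh, Dmgdh, Mtr, Mat2a, Ahcy, Cbs and Cth. They were taken by gene symbol from a table of 19058 genes, and all 9 symbols were found. Bhmt was picked because earlier work on these data had placed it among the genes with the largest falls in TPhP libraries, and the other 8 were added for their place in the pathway. The values of Bhmt are therefore given as a description, with no test.

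The samples were primary Leydig cells, which make testosterone, from testis of mice of WT genotype, and mRNA was enriched with oligo(dT) beads. The first of 3 groups was exposed to triphenyl phosphate (TPhP), a flame retardant and plasticiser with 3 phenyl esters on its phosphate. The second was exposed to diphenyl phosphate (DPhP), the metabolite that lacks 1 of these esters, and the third was labelled Control. Each group had 3 libraries. The sources used here give no dose, exposure time, vehicle or age of the animals. Nor do they state if replicates were separate cultures or animals, so p-values reflect the spread between libraries, and this may be technical. Levels are in FPKM, which scales fragments by transcript length and by library size, so levels of different genes can be set side by side.

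Methionine is activated to S-adenosylmethionine, the methyl donor of most cellular methylation, by a methionine adenosyltransferase such as the product of Mat2a. Once the methyl group is given away, adenosylhomocysteinase (Ahcy) releases homocysteine. Homocysteine is methylated again to methionine, either with folate and cobalamin by methionine synthase (Mtr) or with betaine by Bhmt, or it leaves the cycle toward cysteine through Cbs and Cth. Choline dehydrogenase (Chdh) starts the oxidation of choline to betaine, and Dmgdh breaks down the dimethylglycine that Bhmt leaves behind. The betaine branch is best known from liver and kidney.

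The libraries had FPKM sums of 419107 to 422363 for TPhP, 398680 to 401930 for DPhP and 421963 to 428928 for Control. In short genes with 1 transcript, low values of FPKM times length in kilobases gathered between 0.04 and 0.07. A library had 74 to 134 genes there, against 17 to 33 in the equally wide range above it. The equally wide range below held 17 to 23, but the lowest FPKM values were left out of these counts. That thins the lower range by itself, so the lower range does not show a step. The median between 0.04 and 0.07, 0.0543 to 0.0576 in the 9 libraries, was taken as the worth of 1 fragment. It assumes transcript lengths close to those of GENCODE, and as the range was set by hand it gives no comparison of depth between libraries. Summed over 6 Leydig cell markers (Cyp11a1, Hsd3b1, Star, Insl3, Lhcgr and Nr5a1), the level was 1758 to 1828 FPKM in TPhP libraries, 328 to 342 FPKM in DPhP libraries and 1670 to 1785 FPKM in Control libraries. In DPhP libraries 5 of these 6 fell relative to Control and none rose, while in TPhP libraries none passed the test. Genes were tested if they passed a filter of 1 FPKM in at least 3 libraries. Lhcgr, 1 of the 5, was at 0.64, 0.62 and 0.55 FPKM in DPhP libraries. It passed this filter through TPhP and Control libraries, so it is counted with that limit. Of all tested genes 37.9% fell and 33.1% rose with DPhP, while 3.64% fell and 2.58% rose with TPhP. Markers of other cell types that fell with TPhP were Csf1r and Cx3cr1 of 8 macrophage genes (log2 fold changes -0.22 and -0.30), Wt1 of 3 tested Sertoli genes (-0.36), and Zbtb16 of 5 tested germ cell genes (-0.61), and none rose. Ddx4, another of these 5, was at 0.72, 0.68 and 0.64 FPKM in TPhP and 1.61, 1.22 and 1.01 FPKM in Control libraries. It passed the filter through Control libraries alone, so its call is not used. Sums over markers of other cell types were higher in DPhP than in Control libraries for fibroblast (2168 to 2239 against 1197 to 1216 FPKM), myoid (1526 to 1583 against 591 to 660), Sertoli (53.6 to 57.4 against 17.8 to 19) and endothelial cells (30.7 to 31.8 against 10.4 to 11.3). A few genes carried these sums. By mean, most of the endothelial sum was Cdh5 (29.3 against 9.62 FPKM). At lower levels Kdr (1.18 against 0.447) and Pecam1 (0.27 against 0.127) were also higher, while Tek was at 0.543 against 0.58 FPKM. Most of the Sertoli sum was Cldn11 (27.7 against 6.04) and Wt1 (21.4 against 9.88). Means of Sox9 (5.61 against 2.11), Amh (0.36 against 0.15) and Fshr (0.163 against 0.05) were also higher, while Rhox5 was lower (0.0467 against 0.207). Most of the fibroblast rise was Col1a1 (1340 against 476). Lum was higher too (44.9 against 19.7), while Dcn (612 against 532) and Pdgfra (200 against 180) differed by smaller ratios. The germ cell sum was lower (3.77 to 4 against 17.8 to 24.7), with Tnp1 and Acrv1 listed at 0 in all DPhP libraries, and the macrophage sum was 241 to 246 against 253 to 261. Within the macrophage list Mrc1, Cx3cr1 and Adgre1 rose with DPhP (log2 fold changes 0.54, 0.70 and 0.31), while Itgam, Ptprc and Csf1r fell (-1.15, -0.50 and -0.43). These shifts accompany the TPhP and DPhP values below, and their part in the results was not tested. In bulk RNA, fewer cells of a type and less RNA per cell cannot be told apart.

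Bhmt transfers a methyl group from betaine to homocysteine. The gene (Entrez 12116; chromosome 13, 93616891 to 93637758 in GRCm38.p6) was at 5.85, 6.13 and 6.10 FPKM in TPhP libraries, at 0.39, 0.29 and 0.32 FPKM in DPhP libraries, and at 10.91, 11.29 and 10.50 FPKM in Control libraries. The 3 groups did not overlap, with the TPhP libraries between the other two groups and close together. Non-overlap was found for 27.3% of tested genes between TPhP and Control, 73.4% between DPhP and Control and 71.8% between TPhP and DPhP.

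Mean levels of Bhmt were 6.03 ± 0.154 FPKM with TPhP, 0.333 ± 0.0513 FPKM with DPhP and 10.9 ± 0.395 FPKM in Control (SD, n = 3 each). The mean was thus 1.81-fold lower with TPhP and 32.7-fold lower with DPhP than in Control, and it was 18.1-fold higher with TPhP than with DPhP. On the scale of log2(FPKM + 1) the differences from Control were -0.76 and -3.16, where the added 1 shrinks the second. At that worth of 1 fragment and for the longest annotated transcript, these levels stood for about 426 to 447 fragments in TPhP libraries, 21 to 28 in DPhP libraries and 765 to 822 in Control libraries. Of the 75-base stretches in Bhmt transcripts 79% occurred in no other gene, and 20.5% were shared with Gm5096 and 10.9% with Bhmt-ps1, for which no value was used here.

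**Figure D1:**
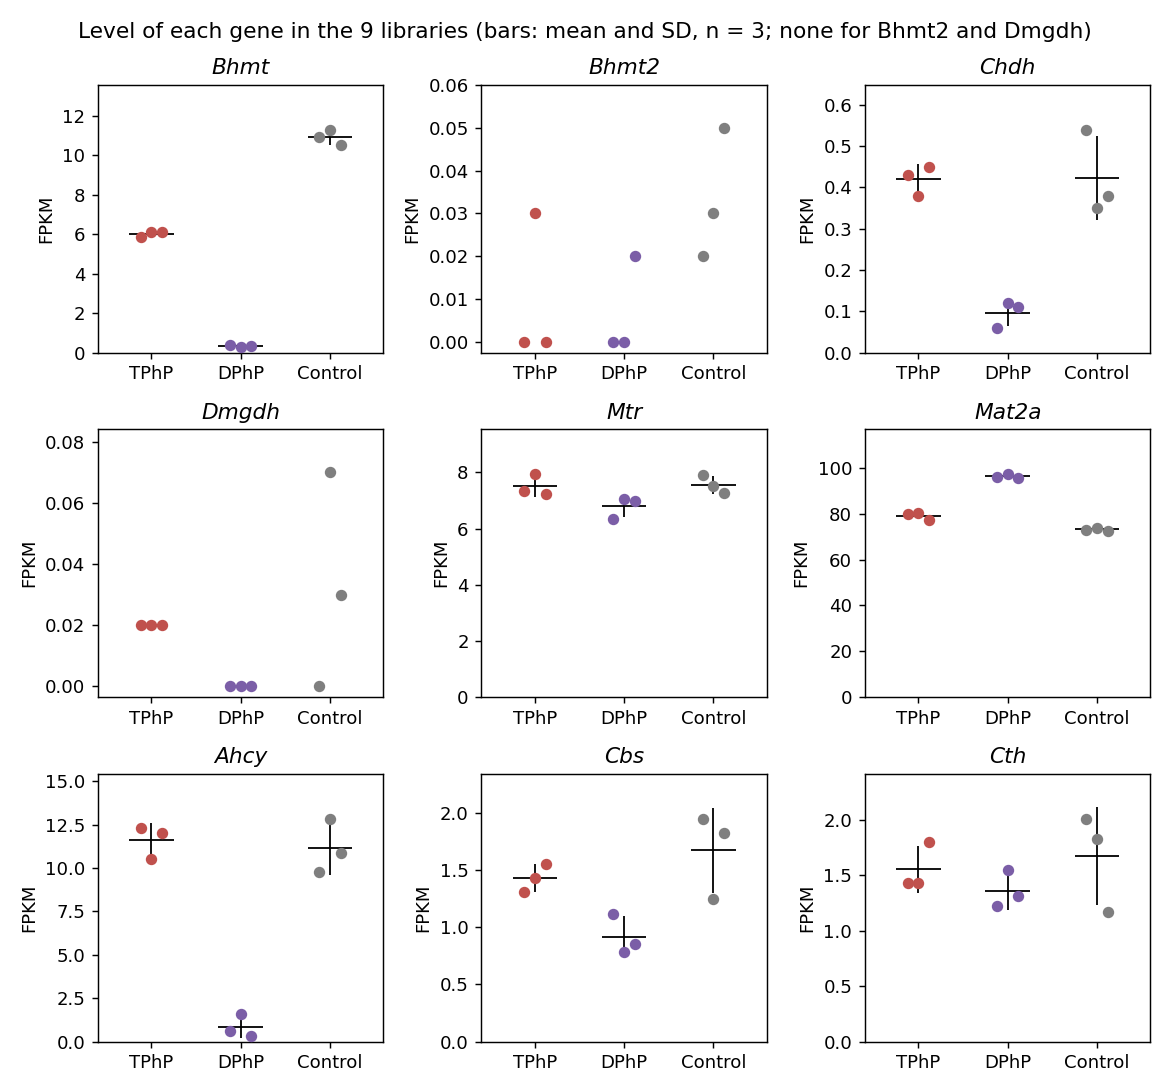
FPKM of the 9 genes in the TPhP, DPhP and Control libraries, 1 point a library, with the mean and SD of 3 libraries as bars except for Bhmt2 and Dmgdh, which are near 0; every panel has its own scale. Bhmt lies near 6 FPKM with TPhP, under 0.4 FPKM with DPhP and above 10 FPKM in Control, while Mat2a is highest with DPhP.

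The region around the start of Bhmt is shown because Bhmt, unlike its paralog Bhmt2, was well expressed, and because the neighbouring pair Bhmt2 and Dmgdh share a start region. Both windows are from RefSeq on GRCm38.p6 and run from 250 bases before to 50 bases after the start site, which is on the minus strand for each. They lie at chr13:93637709-93638008 and chr13:93674253-93674552. Capitals mark matches on either strand to any of 6 motifs: the TATA box (TATAAA), the NR5A1 site (AAGGTCA), the cAMP response element (TGACGTCA), an E-box (CACGTG), the CCAAT box (CCAAT) and the GC box (GGGCGG). No matches overlap in these windows.
Bhmt: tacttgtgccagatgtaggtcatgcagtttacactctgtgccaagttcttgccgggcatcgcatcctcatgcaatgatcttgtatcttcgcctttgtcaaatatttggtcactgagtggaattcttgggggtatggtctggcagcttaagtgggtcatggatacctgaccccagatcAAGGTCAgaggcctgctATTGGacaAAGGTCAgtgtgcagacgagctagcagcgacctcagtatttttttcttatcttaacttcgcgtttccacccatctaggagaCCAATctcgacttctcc
Bhmt2: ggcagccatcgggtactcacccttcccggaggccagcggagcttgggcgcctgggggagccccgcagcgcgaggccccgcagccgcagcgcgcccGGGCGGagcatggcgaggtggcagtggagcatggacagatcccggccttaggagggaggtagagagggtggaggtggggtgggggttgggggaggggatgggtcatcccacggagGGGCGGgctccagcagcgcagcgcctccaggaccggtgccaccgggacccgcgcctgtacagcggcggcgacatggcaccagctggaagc

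The Bhmt window held AAGGTCA at 2 places, beginning 73 and 48 bases before the start site, both on the strand of the gene. Of 27025 promoter windows of this length, 1 a gene, 4.66% held at least 1 such match and 0.185% held at least 2. CCAAT occurred at 2 places in the Bhmt window. Of all windows 37.9% held at least 1 such match and 12.2% at least 2. GGGCGG was found at 2 places in the Bhmt2 window, while 35.9% of all windows held at least 1 match and 19.6% at least 2. The other 3 motifs had no match in either window; they occurred in 14.2% (TATAAA), 1.88% (TGACGTCA) and 7.24% (CACGTG) of all windows. Among the 8 genes with a window in the RefSeq table, AAGGTCA was found in that of Bhmt and in no other. Nr5a1, which encodes the Leydig cell factor known to bind AAGGTCA, was at 46.17 to 49.26 FPKM in TPhP libraries, 32.38 to 34.76 FPKM in DPhP libraries and 47.91 to 49.44 FPKM in Control libraries. A match of letters is a description of the window and does not show that a factor binds there.

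Bhmt, Bhmt2 and Dmgdh lie next to each other on chromosome 13. Bhmt2, which methylates homocysteine with S-methylmethionine, and Dmgdh are transcribed away from each other from start sites 134 bases apart. Bhmt2 was at 0, 0.03 and 0 FPKM in TPhP libraries, 0, 0 and 0.02 FPKM in DPhP libraries and 0.02, 0.03 and 0.05 FPKM in Control libraries. Dmgdh was at 0.02 FPKM in each TPhP library, was listed at 0 in each DPhP library, and was at 0, 0.07 and 0.03 FPKM in Control libraries. These levels stood for at most 4 fragments in any library, so a difference between groups was not detectable at this depth for either gene.

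The genes on both sides of this run were well expressed in every library. Jmy, which encodes a cofactor of p53 that also nucleates actin, was at 16.9 ± 0.0503 FPKM with TPhP, 13.2 ± 0.191 FPKM with DPhP and 15.5 ± 0.254 FPKM in Control. With DPhP it fell by 0.22 on the log2 scale (limma, adjusted p = 6.14e-05), or by 0.14 once libraries were rescaled to a common FPKM sum (adjusted p = 0.00247). On the other side, Arsb (the lysosomal arylsulfatase B) was at 35.0 ± 0.404, 41.2 ± 1.39 and 34.2 ± 0.581 FPKM in TPhP, DPhP and Control libraries, and Lhfpl2 at 29.0 ± 0.335, 42.3 ± 0.721 and 28.7 ± 0.197 FPKM. Both rose with DPhP, by log2 fold changes of 0.26 (adjusted p = 1.22e-05) and 0.54 (adjusted p = 7.10e-09). With TPhP none of the 3 was called against Control (adjusted p = 0.0536, 0.566 and 0.847). Jmy was called with TPhP in 3 of 19 alternative analyses, which were no filter, a mean of at least 5 FPKM and the common sum (adjusted p = 0.0417, 0.0499 and 0.0425). Gm6109, which lies within the span of Jmy, stayed at or under 1 FPKM.

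Genes with a profile like that of Bhmt were sought by distance. For each of 11688 candidate genes, log2(FPKM + 1) was centred on its own mean, and the root-mean-square distance to the centred values of Bhmt over the 9 libraries was taken. The nearest was Stc1, the secreted glycoprotein stanniocalcin, at a distance of 0.139, with 57.9 ± 1.48 FPKM with TPhP, 11.5 ± 0.480 FPKM with DPhP and 90.6 ± 6.72 FPKM in Control. Mt3, a metallothionein gene, followed at 0.162, with 12.9 ± 0.861, 1.12 ± 0.0950 and 20.3 ± 1.81 FPKM in the TPhP, DPhP and Control libraries. Then came Tent5c, a poly(A) polymerase gene, at 0.199, the kallikrein gene Klk1b21 at 0.260 and Fabp7, a fatty acid binding protein gene, at 0.264. In all 5 genes the TPhP mean lay between the DPhP and Control means, and the DPhP libraries were lowest. These 5 were selected for their likeness over the same 9 libraries, so the shared pattern is a description. On the log2 scale their mean differences from Control were -0.26 to -0.64 with TPhP and -2.60 to -3.33 with DPhP.

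**Figure D2:**
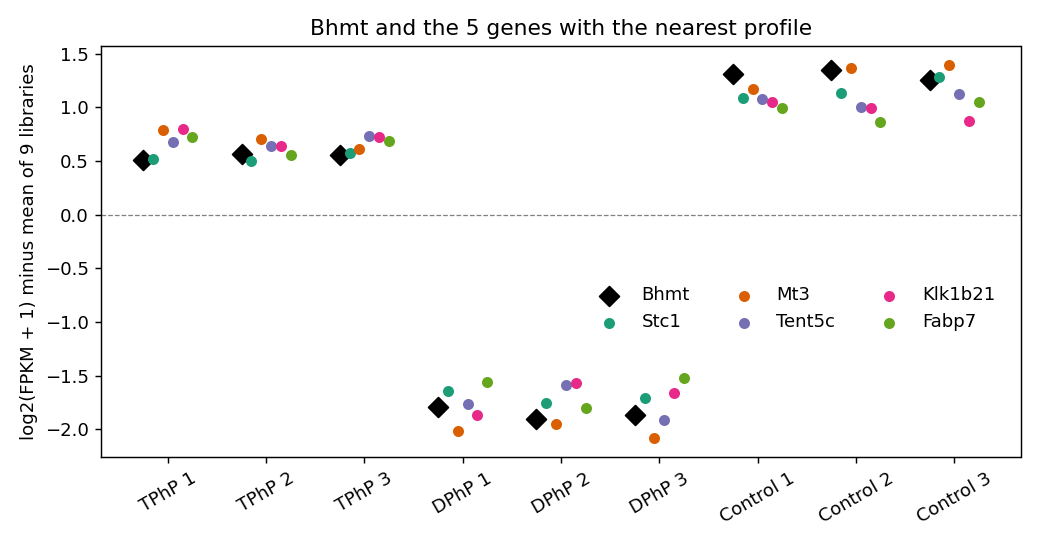
Centred log2(FPKM + 1) of Bhmt (diamonds) and of the 5 genes with the smallest distance to it, in each TPhP, DPhP and Control library. The groups of points lie near 0.5 to 0.8 with TPhP, under -1.5 with DPhP and near 0.9 to 1.4 in Control.

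Supply of betaine depends on Chdh, a mitochondrial enzyme that acts on choline. Chdh (chromosome 14, 30008901 to 30040468) was at 0.43, 0.38 and 0.45 FPKM in TPhP libraries, 0.06, 0.12 and 0.11 FPKM in DPhP libraries and 0.54, 0.35 and 0.38 FPKM in Control libraries. The DPhP libraries lay below all others, and TPhP and Control overlapped. The mean with DPhP was 4.38-fold lower than in Control (0.0967 ± 0.0321 against 0.423 ± 0.102 FPKM). For the longest annotated transcript these levels stood for about 6 to 13 fragments in DPhP libraries and 37 to 56 in Control libraries. For the shortest coding transcript 1 fragment would be worth 0.14 FPKM, above every DPhP value, so the ratio rests on values near the floor. Chdh, Bhmt2 and Dmgdh did not reach 1 FPKM in 3 libraries and were not tested, so no p-value belongs to these differences. Non-overlap between DPhP and Control was common among tested genes, as given above, and its share among untested genes was not computed.

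Of the 9 genes 6 passed that filter. Bhmt, Ahcy and Cbs passed it through the TPhP and Control libraries, being under 1 FPKM in all or all but 1 of the DPhP libraries. For that reason no count over the genes that passed is given, and the tests of Ahcy and Cbs with DPhP are those of a fit to all genes with no filter. Of all 12369 tested genes, 6.22% were called between TPhP and Control at an adjusted p under 0.05 in limma, 2.58% being higher with TPhP and 3.64% lower. Between DPhP and Control 71.0% were called, 33.1% higher and 37.9% lower with DPhP. Between TPhP and DPhP 68.7% were called, 37.8% higher and 30.9% lower with TPhP. A call with DPhP on its own therefore sets a gene little apart.

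Mtr, the folate- and cobalamin-dependent methionine synthase, remakes methionine in most cell types. The gene (chromosome 13, 12181331 to 12258199) was at 7.32, 7.94 and 7.24 FPKM in TPhP libraries, 6.35, 7.07 and 6.97 FPKM in DPhP libraries and 7.90, 7.50 and 7.28 FPKM in Control libraries. TPhP and Control overlapped closely, while all DPhP libraries lay below Control. The log2 fold change with TPhP was -0.01 (95% interval -0.13 to 0.10, adjusted p = 0.933). With DPhP it was -0.14 (95% interval -0.25 to -0.02, adjusted p = 0.0370), a call that ended without DPhP 1 (adjusted p = 0.149), without Control 1 (0.130) and without Control 2 (0.0648). It ended also with no filter on low values (0.0594), with size factors (log2 fold change -0.11, 0.0835) and with rescaling to a common sum (-0.06, 0.320).

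Mat2a, the catalytic subunit of the methionine adenosyltransferase found outside liver, was the most abundant of the 9 genes in every library. It stood (chromosome 6, 72432796 to 72439556) at 80.09, 80.12 and 77.42 FPKM in TPhP libraries, 96.09, 97.30 and 95.53 FPKM in DPhP libraries and 73.11, 73.76 and 72.58 FPKM in Control libraries. The 3 groups did not overlap, with DPhP highest and Control lowest. With DPhP Mat2a rose by a log2 fold change of 0.39 (SE 0.0245, adjusted p = 5.04e-08), with means of 96.3 ± 0.905 FPKM with DPhP and 73.2 ± 0.591 FPKM in Control. The call held in all 19 alternatives, with fold changes from 0.39 to 0.48.

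With TPhP the rise of Mat2a was smaller, a log2 fold change of 0.11 (SE 0.0245, adjusted p = 0.0200; 79.2 ± 1.55 FPKM with TPhP). That call ended without TPhP 1 (adjusted p = 0.0836), TPhP 2 (0.0740), Control 1 (0.0626) or Control 3 (0.0631), and with no intensity trend (0.0654). Set directly against each other, TPhP libraries were lower than DPhP libraries (log2 fold change -0.28, adjusted p = 1.04e-06). As the doses are not given, this compares these libraries and not the potency of the compounds.

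Ahcy encodes the enzyme that clears S-adenosylhomocysteine. The gene (chromosome 2, 155059310 to 155074497) was listed at 12.32, 10.51 and 11.99 FPKM in TPhP libraries, 0.62, 1.57 and 0.32 FPKM in DPhP libraries and 9.79, 12.85 and 10.87 FPKM in Control libraries. TPhP and Control overlapped (log2 difference 0.06, interval of 95% from -0.36 to 0.47, adjusted p = 0.899), while the DPhP libraries lay far below both. Taken alone, Ahcy fell with DPhP by 2.78 on the log2 scale (adjusted p with no filter = 5.57e-06; 0.837 ± 0.653 FPKM against 11.2 ± 1.55 FPKM in Control).

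This value is uncertain, because Ahcy has a near-identical copy. Only 34.1% of the 75-base stretches in Ahcy transcripts occurred in no other gene, and 62.5% were shared with Gm4737, a gene annotated as protein-coding on chromosome 16 (46152985 to 46155077) and tagged in GENCODE as a retrogene. Of the stretches in Gm4737 just 8.96% were its own. Gm4737 was at 23.76, 26.06 and 24.90 FPKM in TPhP libraries, 36.55, 38.12 and 38.17 FPKM in DPhP libraries and 24.22, 23.61 and 22.71 FPKM in Control libraries, so it was high where Ahcy was low.

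The sum of both was 36.08, 36.57 and 36.89 FPKM in TPhP libraries, 37.17, 39.69 and 38.49 FPKM in DPhP libraries and 34.01, 36.46 and 33.58 FPKM in Control libraries. Fitted as 1 gene, an analysis added after the values were seen, the sum rose with DPhP by 0.15 on the log2 scale (95% interval 0.07 to 0.23, adjusted p = 0.00379). With TPhP it was not called (0.07, 95% interval -0.01 to 0.15, adjusted p = 0.274). The direction for Ahcy with DPhP thus turned when the copy was added. Ahcy made up 28.7% to 34.1% of the sum in TPhP libraries, 0.831% to 3.96% in DPhP libraries and 28.8% to 35.2% in Control libraries. The sources used here do not say how fragments that match both genes were assigned, and FPKM of genes of different length add up only roughly.

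**Figure D3:**
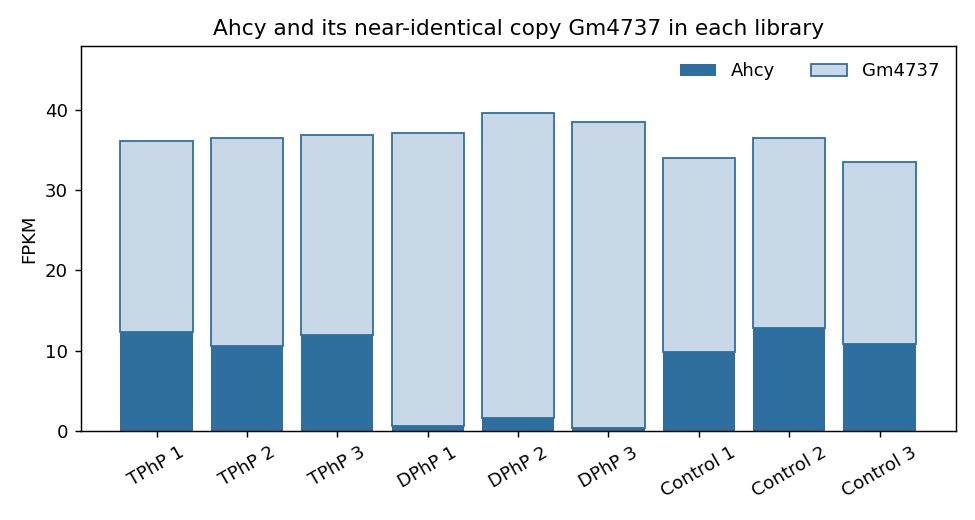
FPKM of Ahcy (dark) and of its near-identical copy Gm4737 (light), stacked, in each TPhP, DPhP and Control library. The total is 33.58 to 39.69 FPKM in all 9 libraries, while the Ahcy part is under 2 FPKM in the DPhP libraries and about 10 to 13 FPKM in the others.

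Cbs and Cth carry homocysteine to cysteine in succession, Cbs by joining it with serine and Cth by cleaving the product. Cbs (chromosome 17, 31612623 to 31637233) was at 1.31, 1.43 and 1.55 FPKM in TPhP libraries, 1.12, 0.78 and 0.85 FPKM in DPhP libraries and 1.95, 1.25 and 1.82 FPKM in Control libraries. All DPhP libraries lay below all Control libraries, and TPhP overlapped with Control. Cbs fell with DPhP by 0.47 on the log2 scale (adjusted p with no filter = 0.00531), or by 0.79 with a pseudocount of 0.1, and every alternative kept the call where the gene was tested. With TPhP the log2 fold change was -0.13 (95% interval -0.36 to 0.10, adjusted p = 0.524).

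Cth (chromosome 3, 157894248 to 157925081) was at 1.43, 1.43 and 1.80 FPKM in TPhP libraries, 1.22, 1.55 and 1.31 FPKM in DPhP libraries and 2.01, 1.83 and 1.17 FPKM in Control libraries. The groups overlapped, and the spread in Control was the widest. Log2 fold changes were -0.05 with TPhP (95% interval -0.31 to 0.20, adjusted p = 0.830) and -0.17 with DPhP (95% interval -0.42 to 0.09, adjusted p = 0.216). Control 3, the lowest of its group, decided the second: without it the log2 fold change was -0.31 (adjusted p = 0.0123).

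**Figure D4:**
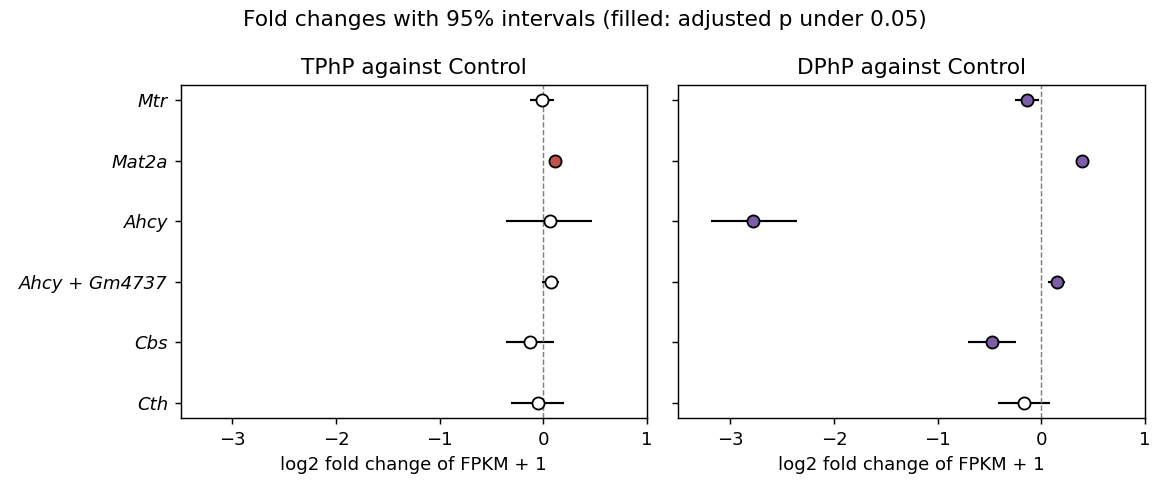
Log2 fold changes of FPKM + 1 with 95% intervals for TPhP (left) and DPhP (right) against Control, from the fit to genes that passed the filter; filled points have an adjusted p under 0.05. With DPhP, Ahcy alone stands at -2.78 while Ahcy and Gm4737 summed stand at 0.15. Ahcy and Cbs passed the filter through TPhP and Control libraries. Their tests with DPhP are those of limma with no filter (adjusted p = 5.57e-06 and 0.00531).

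The members were also ordered by level. In Control libraries Mat2a came first, Ahcy and Bhmt followed with overlapping values, then Mtr, then Cbs and Cth, which overlapped at means of 1.67 FPKM each, then Chdh, with Bhmt2 and Dmgdh last. In TPhP libraries Ahcy and Mtr stood above Bhmt, and Cth and Cbs again overlapped. In DPhP libraries Mtr was second to Mat2a, followed by mean level by Cth, Cbs, Ahcy, Bhmt and Chdh, where Ahcy overlapped with Cth, Cbs and Bhmt. The place of Ahcy is as uncertain as its values: the sum of Ahcy and Gm4737 came second to Mat2a in every library.

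Around these 9 genes, 62 others were listed in 6 lists, chosen with earlier results of these data known. Of them 61 had values and 57 were tested. Amd1 and Chkb had the least sequence of their own, with 27.5% and 60.3% of 75-base stretches found in no other gene. They are counted with that limit. With TPhP 2 of the 57 rose and 4 fell, 10.5% against 6.22% of all tested genes, and the median log2 fold change was 0.02 against 0.01 over all tested genes. With DPhP 14 of the 57 rose and 28 fell, 73.7% called. This was close to the 71.0% of all tested genes. The median was -0.09 against -0.02. With no filter 14 of the 61 rose and 29 fell with DPhP. Rescaled to a common sum, the split was 2 higher and 2 lower with TPhP, and 21 higher and 25 lower with DPhP.

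With TPhP the folate list had 2 of 17 members higher and none lower, 11.8% called against 6.22% of all tested genes. Aldh1l2 and Aldh1l1 encode the mitochondrial and the cytosolic formyltetrahydrofolate dehydrogenase. Aldh1l2 was at 4.61, 4.58 and 4.14 FPKM in TPhP libraries, against 3.48, 3.36 and 3.71 FPKM in Control libraries (log2 fold change 0.27, adjusted p = 0.0107), and its call held in every alternative. Aldh1l1 rose by a log2 fold change of 0.21 (23.6 ± 0.651 FPKM with TPhP, 20.2 ± 1.01 FPKM in Control, adjusted p = 0.0172). Its call ended without TPhP 1 (adjusted p = 0.0585), TPhP 2 (0.0723) or Control 2 (0.0670).

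Among genes that use cysteine, 2 of 11 fell with TPhP, 18.2% called against 6.22% of all tested genes. Cdo1, the cysteine dioxygenase that starts taurine and sulfate formation, was at 1.52, 1.42 and 1.81 FPKM in TPhP libraries, against 2.52, 2.37 and 2.65 FPKM in Control libraries (log2 fold change -0.45, adjusted p = 0.00396, called in every alternative in which it was tested). Suox, the sulfite oxidase, fell by 0.20 on the log2 scale (adjusted p = 0.0464). Its call was lost without any 1 of the 9 libraries except TPhP 3 (adjusted p = 0.0576 to 0.156) and also in 4 other alternatives.

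The other lists had at most 1 call with TPhP. That was 12.5% of tested choline and betaine genes and 10% of S-adenosylmethionine genes, against 6.22% of all tested genes. Chka (choline kinase) fell by 0.15 on the log2 scale, 54.6 ± 1.39 FPKM with TPhP and 60.6 ± 1.73 FPKM in Control (adjusted p = 0.0175), and its call ended without TPhP 1, TPhP 2, Control 2 or Control 3 (0.0590, 0.0732, 0.0732 and 0.0514). Srm (spermidine synthase, which draws on decarboxylated S-adenosylmethionine) fell by 0.19 (adjusted p = 0.0384). That call ended without TPhP 2, TPhP 3, DPhP 1, Control 1, Control 2 or Control 3 (0.102, 0.0784, 0.0534, 0.0791, 0.121 and 0.0848). It ended also with no filter (0.0826), a common sum (0.0522), no intensity trend (0.0783) and a fit to the 6 libraries compared (0.0653). No member of the cobalamin list (6 tested) or the methionine salvage list (5 tested) passed.

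With DPhP 10 of 17 folate genes rose and 4 fell, 82.4% called against 71.0% of all tested genes. Of all tested genes 33.1% rose and 37.9% fell. The median log2 fold change of the list was 0.33 against -0.02 over all tested genes. Aldh1l2 was at 15.45, 16.59 and 16.44 FPKM in DPhP libraries, far above the Control values given above (log2 fold change 1.93, adjusted p = 4.06e-11). Mthfd2, a mitochondrial methylenetetrahydrofolate dehydrogenase, was at 23.4 ± 1.70 FPKM with DPhP and 11.1 ± 0.981 FPKM in Control (log2 fold change 1.01, adjusted p = 1.38e-07). The cytosolic Aldh1l1 moved the other way, at 12.4 ± 0.604 FPKM with DPhP (log2 fold change -0.66, adjusted p = 1.10e-07).

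Of 10 tested genes of S-adenosylmethionine synthesis and use, 1 rose and 4 fell with DPhP, 50% called against 71.0% of all tested genes. Mat2b, the regulatory subunit that binds the product of Mat2a, was at 35.39, 34.54 and 34.47 FPKM in DPhP libraries, against 50.07, 50.88 and 49.37 FPKM in Control libraries (log2 fold change -0.51, adjusted p = 3.50e-08). The catalytic Mat2a and the regulatory Mat2b thus changed in opposite directions with DPhP. Ahcyl1, an Ahcy-like gene whose product binds the inositol trisphosphate receptor, fell by 0.61 on the log2 scale (86.5 ± 2.56 FPKM with DPhP, 133 ± 0.752 FPKM in Control, adjusted p = 2.71e-09). Gamt, a methyltransferase that makes creatine, fell by 0.79 (27.8 ± 0.871 FPKM with DPhP, 48.9 ± 2.16 FPKM in Control, adjusted p = 2.14e-07).

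Of 8 tested choline and betaine genes 1 rose and 5 fell with DPhP, 75% called against 71.0% of all tested genes. Chka was at 26.29, 26.66 and 25.70 FPKM in DPhP libraries, against 58.81, 62.27 and 60.66 FPKM in Control libraries (log2 fold change -1.18, adjusted p = 3.69e-11). Pcyt1a, which encodes the enzyme that follows choline kinase in phosphatidylcholine synthesis, fell by 0.45 (adjusted p = 1.92e-07). Slc44a2, a choline transporter-like gene, rose by a log2 fold change of 0.87 (69.7 ± 1.28 FPKM with DPhP, 37.8 ± 0.609 FPKM in Control, adjusted p = 2.77e-10).

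Downstream of Cth, 8 of 11 genes that use cysteine fell with DPhP and none rose, with a median of -0.43. The share called was 72.7% against 71.0% of all tested genes, of which 37.9% fell. Those that fell included genes of glutathione synthesis and of cysteine breakdown. Among them were Gclc, the catalytic subunit for glutathione synthesis (log2 fold change -0.49, adjusted p = 2.12e-07), Cdo1 (-0.93, adjusted p with no filter = 4.35e-06, or -1.48 with a pseudocount of 0.1) and the sulfurtransferase gene Tst (-0.62, adjusted p = 9.41e-07). Cdo1 was under 1 FPKM in all 3 DPhP libraries and passed the filter through TPhP and Control libraries, so it is counted among the 8 with that limit. In methionine salvage, which recovers methionine from polyamine synthesis, 4 of 5 fell, among them Adi1 (-0.56, adjusted p = 1.21e-07) and Mri1 (-0.46, adjusted p = 3.60e-05). Mtap, the phosphorylase that opens this route, rose (0.31, adjusted p = 3.53e-05). In all, 100% of the salvage list was called against 71.0% of all tested genes.

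Of 6 cobalamin genes 1 rose and 3 fell with DPhP, 66.7% called against 71.0% of all tested genes. The falls were those of Tcn2 (transcobalamin, log2 fold change -0.63, adjusted p = 5.95e-09), Lmbrd1 (lysosomal cobalamin export, -0.37, adjusted p = 1.17e-05) and Cd320 (the transcobalamin receptor, -0.22, adjusted p = 0.000764). Rescaled to a common sum, the fold change of Cd320 was -0.15 (adjusted p = 0.0132).

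**Figure D5:**
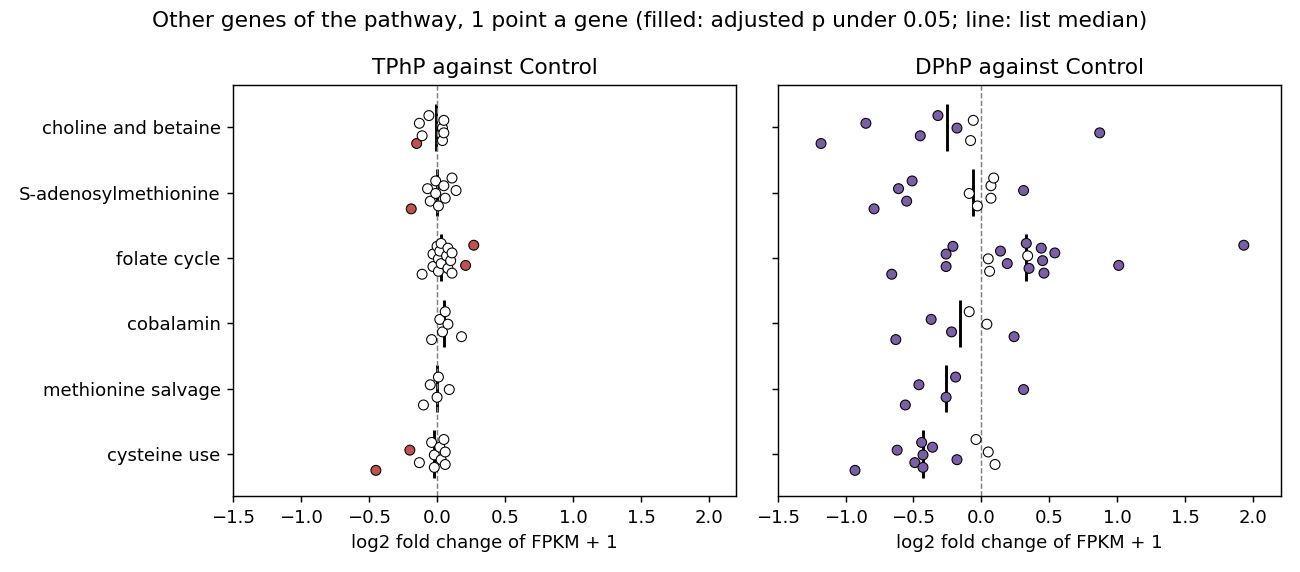
Log2 fold changes of FPKM + 1 for the 57 tested genes of the 6 lists, TPhP (left) and DPhP (right) against Control, 1 point a gene; filled points have an adjusted p under 0.05 and vertical lines are list medians. With TPhP all but 6 points are open and lie near 0, while with DPhP the folate list has a median of 0.33 and the cysteine list one of -0.43.

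TPhP set directly against DPhP gave 29 higher and 15 lower of the 57, 77.2% against 68.7% of all tested genes. In each list, up to 3 called genes with the smallest p were taken. Those higher in TPhP libraries were Chka (log2 fold change 1.03), Pcyt1a (0.51), Ahcyl2 (0.69), Ahcyl1 (0.63), Mat2b (0.50), Aldh1l1 (0.87), Tcn2 (0.67), Lmbrd1 (0.45), Cd320 (0.24), Adi1 (0.64), Mri1 (0.41), Gclc (0.55), Gss (0.50) and Mpst (0.41). Those lower in TPhP libraries were Aldh1l2 (-1.66), Mthfd2 (-0.94), Slc44a2 (-0.83) and Mtap (-0.30). Of the 9 enzymes, Cbs was higher with TPhP than with DPhP (log2 fold change 0.35, adjusted p with no filter = 0.0262, or 0.60 with a pseudocount of 0.1). Cth was not called (0.11, 95% interval -0.14 to 0.37, adjusted p = 0.406). Mtr was not called either (0.12, 95% interval 0.01 to 0.24, adjusted p = 0.0526), though it passed without DPhP 2 (0.0434) and with no intensity trend (0.0485). The sum of Ahcy and Gm4737 differed by -0.07 on the log2 scale (95% interval -0.15 to 0.01, adjusted p = 0.0985), whereas Ahcy alone was higher with TPhP (2.83, adjusted p with no filter = 5.07e-06).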

How the data were processed

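RNA sequencing values of 9 libraries were used. The authors deposited 1 table of FPKM values to 2 decimals, per the file headers. The genome build was GRCm38.p6, per the submitters' processing notes, while the sources used here name no aligner, counter, annotation or strand setting. Columns were matched to samples by name. FPKM are not counts, so values were analysed as log2(FPKM + 1) with limma 3.58.1 in R 4.3.3. The tested genes reached 1 FPKM in 3 or more libraries and were fitted in 1 model with a mean per group and an intensity trend. Benjamini-Hochberg adjustment ran over all tested genes of a comparison, all tests were two-sided, and the fit was tested on simulated data. Fold changes are on that scale and understate those of low genes.

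The step of 1 fragment was estimated from genes with 1 annotated GENCODE M21 transcript of 300 to 1500 bases, as the median of FPKM times length in kilobases between 0.04 and 0.07. The lowest FPKM values were left out of this estimate. Shared sequence was counted over 75-base stretches of the same transcripts. Positions and promoters are from RefSeq. Slc5a7 was not analysed here. The members and lists were chosen with earlier results of these data known. Named besides the 9 genes were up to 3 called genes with the smallest p per list and comparison, the 5 nearest profiles to Bhmt among genes with a mean of at least 1 FPKM (without Gm, Rik and LOC symbols), and the neighbouring coding genes. The alternatives were other pseudocounts, filters and scalings, a replicate block, a variance without trend, a fit to the 6 libraries compared, leaving out each library, and Ahcy summed with Gm4737, which was chosen after seeing the data. Figures were drawn with Python 3.11.15 and matplotlib 3.10.9.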

Additional observations from a re-analysis of the deposited data

How the results depend on the processing

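Leaving out 1 library at a time gave 413 to 775 genes called between TPhP and Control, against 769 with all libraries, and 2 to 5 of the other pathway genes, against 6. The lower counts came without TPhP 1, TPhP 2, Control 1 and Control 2 for all genes (436, 413, 504 and 444), and without TPhP 1, TPhP 2, Control 2 and Control 3 for the pathway genes (3, 2, 2 and 3). With DPhP the counts stayed within 8228 to 8752 for all genes and 42 to 46 for the pathway, against 8782 and 42, and between TPhP and DPhP within 7966 to 8489 and 42 to 45, against 8495 and 44. With the replicate block 663, 8711 and 8458 genes were called in the 3 comparisons, and 6, 44 and 44 pathway genes; it changed no call of the genes named. Same-numbered libraries did not deviate together (r = -0.121 to 0.104 between groups), so the numbers were not taken as pairs. Rescaling to a common sum turned the split of calls from 319 higher and 450 lower to 429 and 355 with TPhP. With DPhP the split went from 4089 and 4693 to 5223 and 3721. Between TPhP and DPhP it went from 4672 and 3823 to 3791 and 4773. The rescaling moved the median log2 fold change from 0.006 to 0.019 with TPhP and from -0.021 to 0.056 with DPhP. Between TPhP and DPhP the median moved from 0.027 to -0.036. Why the sums differed between groups was not tested.

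Summing Ahcy with Gm4737 turned the log2 fold change from -2.78 to 0.145 with DPhP against Control. Between TPhP and DPhP it went from 2.83 to -0.072, which was not called (limma, adjusted p = 0.0985). Mean levels with DPhP and in Control were 37.6 and 23.5 FPKM for Gm4737, and 0.837 and 11.2 FPKM for Ahcy. The log2 difference of Bhmt ranged from -0.84 to -0.74 with TPhP and from -4.67 to -3.12 with DPhP, the larger sizes coming with a pseudocount of 0.1. The fall of Suox with DPhP was called in the main analysis (-0.18, adjusted p = 0.00875) and not after rescaling (adjusted p = 0.114). Depth limits Bhmt2 and Dmgdh, where 1 fragment is worth about 0.022 and 0.018 FPKM.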

Other observations

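Some pathway genes too low to be tested are given here as values, chosen after they were seen. Mat1a, the liver form of methionine adenosyltransferase, was at 0.34, 0.22 and 0.22 FPKM in TPhP libraries, was listed at 0 in all DPhP libraries, and was at 0.26, 0.36 and 0.29 FPKM in Control libraries. Gnmt, a glycine methyltransferase that consumes S-adenosylmethionine, averaged 0.22 ± 0.139 FPKM with TPhP, 0.103 ± 0.131 FPKM with DPhP and 0.387 ± 0.0321 FPKM in Control (SD, n = 3 each). The other untested genes with values, Slc6a12 and Ftcd, overlapped between DPhP and Control libraries. Their means were 0.0367 against 0.0667 FPKM and 0.127 against 0.14 FPKM. Fragment numbers were not estimated for these genes.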
